A study of Mus musculus with 19 samples.

Results

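A set of 9 genes of the GATA and Wnt pathways, which hold fat precursor cells back from becoming fat cells, was followed across 19 mouse arrays. The genes were the transcription factors Gata2 and Gata3, the Wnt ligands Wnt10b and Wnt5a, and the Wnt amplifier Rspo3. They also included Ctnnb1, which encodes β-catenin, the pathway's own inhibitor Axin2, and the DNA-binding partners of β-catenin, Tcf7l1 and Tcf7l2. They were chosen by name, with earlier results of these data known. All 9 of 9 genes were found among the 22180 genes with 1 gene symbol, and a gene with several transcript clusters was read from the cluster with the highest mean over the 19 arrays.

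GATA2 and GATA3 are zinc-finger factors of preadipocytes that bind C/EBP proteins and repress Pparg, the master regulator of fat cell formation. Canonical Wnt ligands such as WNT10B act through Frizzled and LRP receptors to free β-catenin from its destruction complex, after which β-catenin with TCF/LEF factors switches on target genes and keeps Pparg and Cebpa off. R-spondins keep Frizzled receptors at the cell surface and so strengthen a Wnt signal, AXIN2 is both a target and a feedback inhibitor of the pathway, and WNT5A signals mostly without β-catenin.

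The study asked which transcripts depend on MED1 in early fat cell formation and in brown fat. MED1 is the Mediator subunit that nuclear receptors such as PPARγ bind when they recruit the transcription machinery. The cell arrays used 3T3-L1 cells, a mouse preadipocyte line. Parental wild-type cells and MED1-KO cells made with CRISPR/Cas9 were compared on day 0 and on day 2 of differentiation, with 2 arrays in each of the 4 groups. By the source labels the cells were taken before or 2 days after hormonal stimulation. Between days, the response to the hormones cannot be told apart from differentiation. RNA of individual knockout clones was pooled, so differences that came with cloning cannot be told apart from loss of MED1. The brown fat arrays came from interscapular tissue. At E17.5 there were 3 arrays of Myf5CreMed1f/w controls, which carry the Cre driver and 1 floxed allele, and 4 of Myf5CreMed1f/f knockouts. At 10 weeks there were 2 arrays of Med1f/f controls without Cre and 2 of AdipoqCreMed1f/f knockouts. Myf5-Cre is active in progenitors of brown fat and skeletal muscle, and Adiponectin-Cre in fat cells, so other cells of the tissue keep MED1.

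All values are log2 array signals, all differences are on that log2 scale, and ± marks the standard error of a difference unless SD is written. A gene was said to rise or fall when limma's adjusted p, by Benjamini-Hochberg over all 22180 genes, was under 0.05. Over all genes, replicate arrays of a group correlated at 0.985 to 0.996. Med1 lay at 8.23 to 8.55 on the wild-type cell arrays and at 7.0 to 7.16 on the knockout arrays. In the embryo the knockout arrays lay at 6.88 to 7.10 and 1 of the 3 control arrays, at 6.94, lay among them (-0.35 ± 0.19, adjusted p = 0.369). In the adult Med1 was 5.99 and 6.90 on control arrays and 5.28 and 5.13 on knockout arrays (-1.24 ± 0.31, adjusted p = 0.19). For 4 of the 8 arrays of cells the titles name one day and the source labels name the other. Days were taken from the title. By the title, the mean log2 signal of 6 mature fat cell markers in wild-type cells was 4.65 and 4.54 on day 0. On day 2 it was 6.02 and 5.90. The source labels would put 4.65 and 6.02 on day 0 and 4.54 and 5.90 on day 2. The comparison of genotypes over the 4 cell pairs does not depend on that choice, because each pair holds a wild-type and a knockout array of the same day under either label. The labels do not say that replicates came from separate cultures or animals, so what the p-values weigh is array-to-array spread, which may be technical.

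Few of the 9 genes passed the test in any comparison. Loss of MED1 in cells went with higher Rspo3. The first 2 days of differentiation went with lower Gata2 and Wnt5a in wild-type cells. Embryonic knockout brown fat had higher Tcf7l1 and Tcf7l2. Over the 4 cell pairs 1 of 9 genes rose and 0 fell, where 0.0766% of all genes rose and 0.212% fell. From day 0 to day 2 in wild-type cells 0 of 9 rose and 2 fell, where 3.44% of all genes rose and 5.64% fell. In embryonic brown fat 2 of 9 were higher and 0 lower, where 0.658% of all genes were higher and 0.5% lower. Changes between days were thus common in the table, and those with genotype rare. None of the 9 passed the limma test for knockout against wild type on day 0 or on day 2 alone, for the days in knockout cells, or for the knockout in adult brown fat. The counts at an unadjusted p under 0.05 in these comparisons were 1, 2, 1 and 2 of 9, and the shares of all genes past the adjusted threshold were 0.185%, 0.266%, 5.7% and 0.0271%. For the difference between genotypes in the change over days, and for that between adult and embryonic knockout effects, 0 of 9 passed (0 and 2 of 9 at an unadjusted p under 0.05), as did 0% and 1.99% of all genes. Groups of arrays did not overlap for 2 of 9 genes between genotypes on day 0 and for 4 of 9 on day 2, where 34.0% and 36.4% of all genes did not. Between days they did not overlap for 7 of 9 in wild-type and 4 of 9 in knockout cells, against 48.7% and 47.9% of all genes.

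**Figure D1:**
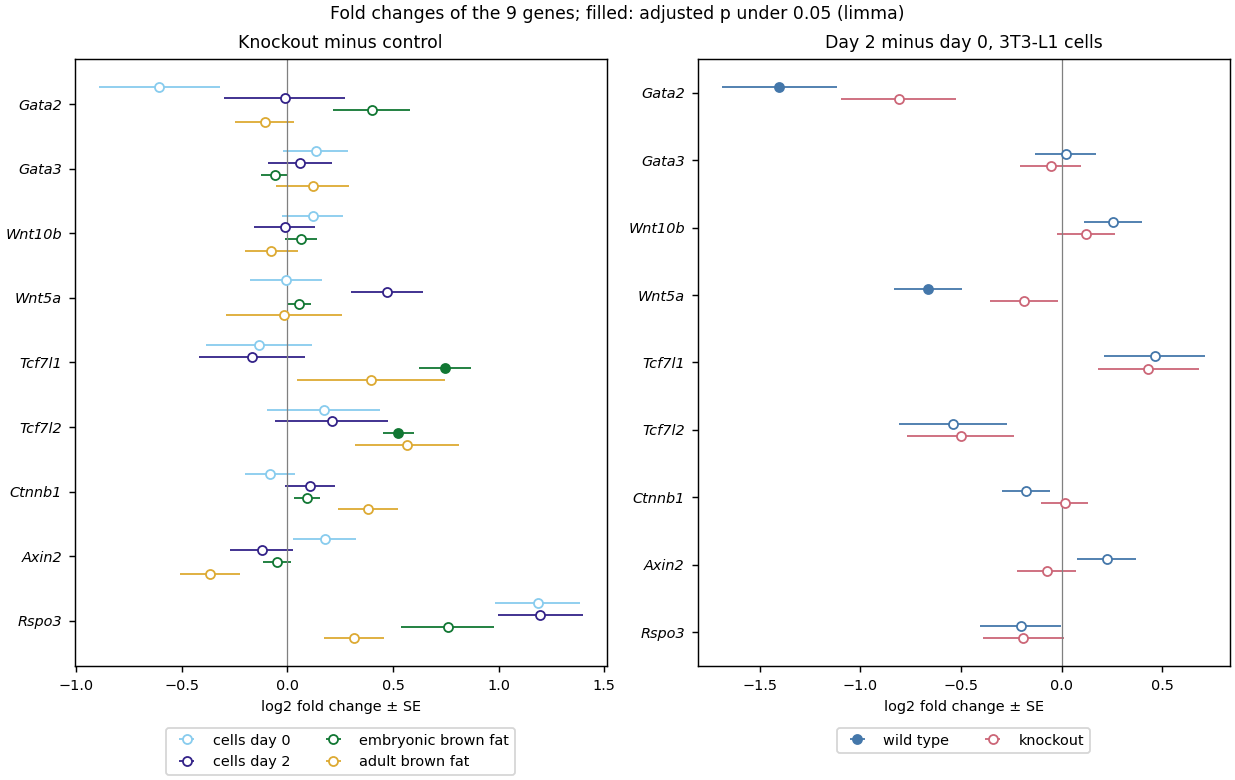
Log2 fold changes (x axis, ± SE) of the 9 genes (y axis). The left panel shows knockout minus control in cells on day 0 and day 2, in embryonic and in adult brown fat, and the right panel shows day 2 minus day 0 in wild-type and knockout cells. Filled points passed an adjusted p of 0.05 (limma): Gata2 and Wnt5a between days in wild-type cells, and Tcf7l1 and Tcf7l2 in the embryo. Rspo3 lies at 1.18 on day 0 and at 1.2 on day 2 in cells.

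Gata2, the GATA factor that marks preadipocytes, fell as wild-type cells differentiated. Its log2 signal was 8.24 and 7.21 on the day 0 arrays and 6.28 and 6.36 on the day 2 arrays. Both day 0 arrays lay above both day 2 arrays, and the day 0 arrays differed from each other by more than those of any other cell group did for this gene. The difference was -1.40 ± 0.29 (2.65-fold lower, adjusted p = 0.0154). Without the first day 0 array it was -0.89 (adjusted p = 0.0403), and without either wild-type day 2 array the call was lost (adjusted p = 0.0701 and 0.0702). With days by the source label it was -0.48 ± 0.67 (adjusted p = 1). Cell type markers also moved between these days. The mean log2 signal of 6 preadipocyte and fibroblast markers went from between 10.60 and 10.86 to between 9.83 and 10.01 in wild-type cells, where 3 of the 6 fell, and from between 10.50 and 10.76 to between 9.62 and 9.63 in knockout cells, where 4 of the 6 fell. Of 6 mature fat cell markers, 5 rose in wild-type and 2 in knockout cells. Their part in the falls of Gata2 and Wnt5a was not tested.

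In knockout cells Gata2 was 7.34 and 6.89 on day 0 and 6.29 and 6.33 on day 2. The day 0 arrays again lay above the day 2 arrays, by a difference of -0.81 ± 0.29 that missed the threshold (adjusted p = 0.17). Without either of the wild-type day 0 arrays, whose spread enters the shared fit, this difference passed it (adjusted p = 0.026). The change between days was not shown to differ between the genotypes: the test of that difference gave 0.59 ± 0.41 (adjusted p = 1). By group mean, Gata2 ran from wild-type day 0 (7.72 ± 0.73, SD, n = 2) through knockout day 0 (7.12 ± 0.32, SD, n = 2) to wild-type day 2 (6.32 ± 0.05, SD, n = 2) and knockout day 2 (6.31 ± 0.03, SD, n = 2). The first pair of neighbours overlapped in their arrays and so did the last pair.

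Gata2 has 2 listed start sites, and which of them these cells use was not tested. The stretch of promoter just before the first listed one is shown because Gata2 fell between days. It is 120 bases of RefSeq's GRCm38.p6 sequence, plus strand, at chr6:88193771-88193890, written 5′ to 3′ with no capitals because neither motif searched here is in it.
Gata2: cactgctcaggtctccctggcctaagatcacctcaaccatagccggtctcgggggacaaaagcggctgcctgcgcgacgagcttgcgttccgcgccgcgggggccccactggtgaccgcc
The motifs searched on both strands, in windows from 250 bases before to 50 bases after a start site, were of 2 kinds. The GATA letters were AGATAA or AGATAG, and also the forms with another first base, TGATAA or else TGATAG. The TCF letters were CTTTGAA with its variant CTTTGAT. Of all 32851 windows of 300 bases, 29.8% held the GATA letters and 8.65% held the TCF letters. A window was listed for 7 of the 9 genes, all but Wnt5a and Rspo3. Only the window of Gata3 and the second listed window of Tcf7l2 held a GATA match. No window of the 7 genes held the TCF letters.

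In embryonic brown fat Gata2 was 5.69, 4.93 and 5.54 on the control arrays and 5.79, 5.91, 5.58 and 5.85 on the knockout arrays. The highest control lay among the knockout arrays, and the difference was 0.40 ± 0.18 (adjusted p = 0.285). In the adult it was 3.31 and 3.49 in controls and 3.28 and 3.31 in knockouts (-0.11 ± 0.14, adjusted p = 0.84). The 3 genes whose profile over the 8 group means, centred within each experiment, was most like that of Gata2 were Zfp455, Eya4 and Pml, with root mean square differences of 0.07, 0.10 and 0.10 log2 units against a Gata2 range of 1.42.

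Gata3, the partner of Gata2 in precursor cells, did not pass the test in any comparison. In the cells it lay between 5.13 and 5.50 on all 8 arrays, and its differences between groups ran from -0.05 to 0.13. In the embryo 5 of the 7 arrays were at 3.79, with 1 control at 3.82 and 1 knockout at 3.59. In the adult it was 3.52 and 3.25 in controls and 3.65 and 3.36 in knockouts. The other transcript cluster of Gata3 read 6.22 and 6.02 on wild-type day 0 and 5.44 and 5.70 on wild-type day 2. Its difference between days, -0.55, had the opposite sign to the 0.02 of the cluster used and did not pass the test either (adjusted p = 0.0842).

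The GATA genes, Gata2 and Gata3 among them, and their FOG cofactors made a list of 8, all measured. In wild-type cells 1 of the 8 rose between days and 2 fell, where 3.44% of all genes rose and 5.64% fell. The list's median was -0.01 against 0.03 over all genes. Besides Gata2, Zfpm2, which encodes the cofactor FOG2, fell (-0.57 ± 0.14, adjusted p = 0.0411, and -0.38 with adjusted p = 0.204 in knockout cells). Gata6, an endodermal and cardiac GATA factor, rose by 0.64 ± 0.14 (adjusted p = 0.0185). In knockout cells Gata6 was the 1 gene of the list that changed, and it rose by 0.67 ± 0.14 (adjusted p = 0.0217). Of all genes 2.14% rose and 3.57% fell there. Over the 4 cell pairs Gata6 was lower in the knockout (-0.56 ± 0.08, adjusted p = 0.046), the 1 gene of this list that changed. Of all genes 0.0766% rose and 0.212% fell over the pairs.

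**Figure D2:**
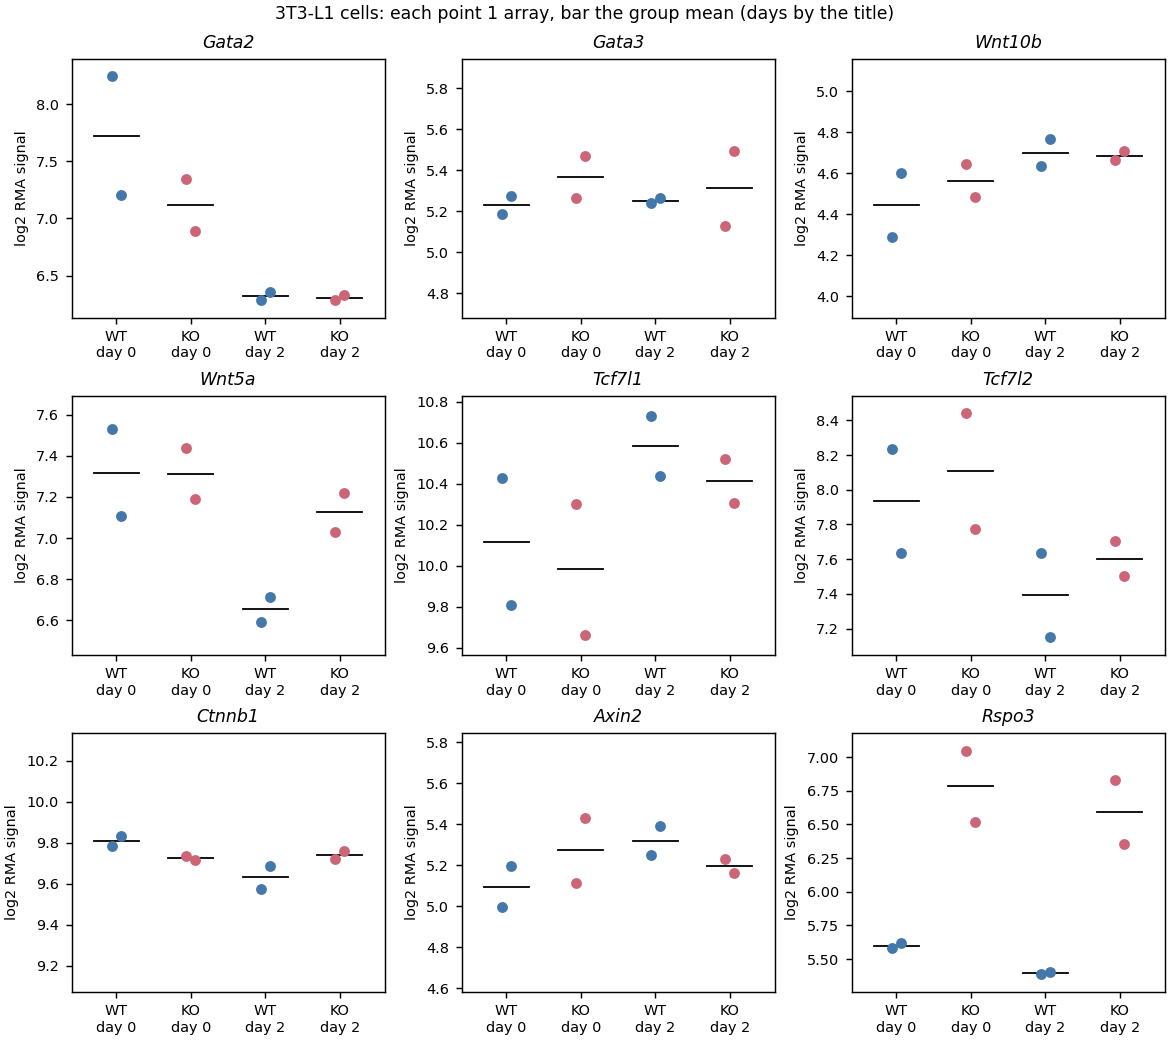
Log2 array signal (y axis, a scale of its own for each gene) of the 9 genes in 3T3-L1 cells by genotype and day (x axis), each point 1 array and each bar a group mean of 2 arrays. Gata2 is highest on wild-type day 0 (8.24 and 7.21), Wnt5a is lowest on wild-type day 2 (6.59 and 6.71), and all 4 knockout arrays of Rspo3 (6.36 to 7.05) lie above all 4 wild-type arrays (5.39 to 5.62).

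Wnt5a, a non-canonical Wnt ligand, fell in wild-type cells as they differentiated. It was 7.53 and 7.11 on day 0 and 6.59 and 6.71 on day 2, so the days did not overlap. The difference was -0.67 ± 0.17 (1.59-fold lower, adjusted p = 0.0406). In knockout cells it was 7.44 and 7.19 on day 0 and 7.03 and 7.22 on day 2, so those days overlapped (-0.19 ± 0.17, adjusted p = 0.679). On day 2 both knockout arrays lay above both wild-type arrays, by 0.47 ± 0.17 (adjusted p = 0.505). The change between days was not shown to differ between the genotypes (0.48 ± 0.24, adjusted p = 1).

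The call for Wnt5a was close to the threshold. Of the 8 fits that each left out 1 cell array it held only in the one without the second wild-type day 0 array (adjusted p = 0.0288). In the other 7, without the first wild-type day 0 array, a wild-type day 2 array or a knockout array, the adjusted p was 0.0541 to 0.217. Quantile normalization within the cell arrays gave -0.61 (adjusted p = 0.0584), and days by the source label gave -0.15 (adjusted p = 1).

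In brown fat Wnt5a did not differ detectably between genotypes. The embryonic controls were at 4.75 to 4.83 and the knockouts at 4.81 to 4.92 (0.06 ± 0.05, adjusted p = 0.604). The adult controls, at 3.84 and 3.09, lay on either side of the knockouts at 3.57 and 3.32. The profiles most like that of Wnt5a over the 8 group means were those of Ndrg4, Ap4e1 and Tmem81, each with a root mean square difference of 0.04 against a Wnt5a range of 0.67.

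Wnt10b, the canonical ligand best known for blocking fat cell formation, did not pass the test in any comparison. In wild-type cells it was 4.29 and 4.60 on day 0 and 4.63 and 4.76 on day 2, and in knockout cells 4.64 and 4.48, then 4.66 and 4.71. Its mean was higher on day 2 in both genotypes, by 0.25 ± 0.14 and 0.12 ± 0.14 (adjusted p = 0.356 and 0.772). In the embryo 6 of 7 arrays lay between 3.57 and 3.64 and 1 knockout array was at 3.86. In the adult the controls were at 2.47 and 2.50 and the knockouts at 2.41 and 2.40 (-0.08 ± 0.13, adjusted p = 0.892).

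Of all 19 Wnt ligands measured, 1 rose and 1 fell between days in wild-type cells, where 3.44% of all genes rose and 5.64% fell. The list's median was 0.09 against 0.03 over all genes. The ligand that rose was Wnt4, by 1.01 ± 0.19 (adjusted p = 0.00957). It also rose in knockout cells, by 1.23 ± 0.19 (adjusted p = 0.00505), where no other ligand changed. Of all genes 2.14% rose and 3.57% fell there. No ligand passed the test between genotypes in cells or in brown fat. These comparisons of days and of genotypes share arrays, so their values are not independent.

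Among the 12 Frizzled and LRP receptor genes 2 rose and 0 fell between days in each genotype. Lrp5, a co-receptor of canonical Wnt ligands, rose by 1.85 ± 0.20 in wild-type cells and by 1.23 ± 0.20 in knockout cells (adjusted p = 0.000618 and 0.00795). Fzd4, a Frizzled receptor, rose by 1.70 ± 0.31 and 1.33 ± 0.31 (adjusted p = 0.0085 and 0.0367). The list's median was 0.20 in wild-type and 0.10 in knockout cells, against 0.03 and 0.01 over all genes. Of the 11 non-canonical receptor and cell polarity genes, Vangl1 and Prickle1, both of the planar polarity pathway, rose in knockout cells by 0.75 ± 0.17 and 0.66 ± 0.13 (adjusted p = 0.0347 and 0.022). None of the 11 passed the test in wild-type cells, where these genes gave 0.44 and 0.28 (adjusted p = 0.163 and 0.273).

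Rspo3, the secreted amplifier of Wnt signals, was the 1 gene of the 9 that changed with MED1 in cells. The wild-type arrays were at 5.58 and 5.62 on day 0 and 5.39 and 5.41 on day 2. The knockout arrays were at 7.05 and 6.52 on day 0 and 6.83 and 6.36 on day 2. Every knockout array lay above every wild-type array, and the wild-type arrays of a day lay within a few hundredths of each other while the knockout arrays of a day spread wider.

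Within the 4 pairs the knockout minus the wild type was 1.47 and 0.90 on day 0. It was 1.44 and 0.95 on day 2, so all 4 pairs went the same way. Pairs of the same replicate number were alike on both days (1.47 and 1.44, then 0.90 and 0.95). The fit counts the 4 pairs as independent, which the labels do not state. If they are not, the standard error is too small. Rspo3 rose by 1.19 ± 0.12 over the pairs (2.28-fold, adjusted p = 0.00973). Without the first day 0 pair the adjusted p was 0.0507 and without the second day 2 pair 0.0543, with differences of 1.10 and 1.27; without either of the other pairs the call held (0.023 and 0.0475). Taken alone, day 0 gave 1.18 ± 0.20 (adjusted p = 0.0867) and day 2 gave 1.2 ± 0.20 (adjusted p = 0.0614). With the replicate number as a block in that fit both passed (adjusted p = 0.046 and 0.0345).

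No change of Rspo3 between days was shown. The difference was -0.20 ± 0.20 in wild-type cells and -0.19 ± 0.20 in knockout cells (adjusted p = 0.626 and 0.735), and the test of a different change gave 0.01 ± 0.28 (adjusted p = 1). By group mean its order was knockout day 0 (6.78 ± 0.38, SD, n = 2), knockout day 2 (6.59 ± 0.33, SD, n = 2), wild-type day 0 (5.60 ± 0.02, SD, n = 2) and wild-type day 2 (5.40 ± 0.01, SD, n = 2). The arrays of the first pair of neighbours overlapped and those of the other neighbours did not.

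In embryonic brown fat Rspo3 was 5.05, 4.86 and 4.41 in controls and 5.58, 5.34, 5.21 and 5.99 in knockouts. Here too every knockout array lay above every control array, but the difference of 0.76 ± 0.22 missed the threshold (adjusted p = 0.124). In the adult the controls were at 2.85 and 2.69 and the knockouts at 3.03 and 3.14 (0.31 ± 0.14, adjusted p = 0.438). The profiles most like that of Rspo3 over the 8 group means were those of Itgb6, Ptgfrn and Tes, with root mean square differences of 0.17, 0.18 and 0.19 against an Rspo3 range of 1.39.

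The list of R-spondins, their LGR receptors and the ubiquitin ligases they inhibit had 9 genes. Rspo3 was the 1 gene of the 9 that changed over the cell pairs, where 0.0766% of all genes rose and 0.212% fell. The list's median there was -0.11 against 0.00 over all genes. Between days Lgr4, an R-spondin receptor, rose by 0.86 ± 0.14 in wild-type and by 0.64 ± 0.14 in knockout cells (adjusted p = 0.00577 and 0.0317). Of all genes 3.44% rose and 5.64% fell between wild-type days, and 2.14% rose and 3.57% fell between knockout days. Among 12 secreted Wnt inhibitors Sfrp2, which binds Wnt ligands, fell by 1.52 ± 0.20 in wild-type cells and fell by 1.35 ± 0.20 in knockout cells (adjusted p = 0.00141 and 0.004), and no other inhibitor changed between days.

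Ctnnb1, which encodes β-catenin itself, did not pass the test in any comparison. Its 8 cell arrays lay between 9.58 and 9.83, and its differences there ran from -0.18 to 0.11. In the embryo controls were at 8.81 to 8.87 and knockouts at 8.86 to 9.02 (0.09 ± 0.06, adjusted p = 0.451). In the adult the controls, at 7.49 and 7.54, lay below the knockouts at 8.0 and 7.79 (0.38 ± 0.14, adjusted p = 0.346). β-Catenin is controlled mostly by protein breakdown, which arrays do not measure.

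Axin2, the feedback inhibitor whose RNA is widely used as a readout of canonical Wnt activity, also missed the threshold everywhere. In wild-type cells it was 5.0 and 5.20 on day 0 and 5.25 and 5.39 on day 2. In knockout cells it was 5.11 and 5.43 on day 0 and 5.23 and 5.16 on day 2. The day 2 knockout arrays lay just below the day 2 wild-type arrays (-0.12 ± 0.15, adjusted p = 0.901), and the other transcript cluster of Axin2 gave 0.07 there. In the embryo 6 of 7 arrays lay between 4.8 and 4.89, with 1 knockout at 4.65. In the adult the knockouts, at 3.83 and 3.63, lay below the controls at 4.13 and 4.07 (-0.37 ± 0.14, adjusted p = 0.363), and the other cluster gave -0.12 ± 0.14.

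Of 15 measured genes of the destruction complex and Dishevelled family, Apc, its scaffold, fell between days in wild-type cells (-0.61 ± 0.13, adjusted p = 0.0184). In that comparison 5.64% of all genes fell. None of the 15 passed the test between days in knockout cells, where Apc gave -0.44 (adjusted p = 0.0953). Among 19 measured genes known as β-catenin targets, wild-type cells had 3 that rose and 4 that fell, where 3.44% and 5.64% of all genes did. Knockout cells had 2 that rose and 3 that fell, where 2.14% and 3.57% of all genes did. The medians of the list were 0.12 and -0.06, against 0.03 and 0.01 over all genes.

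The targets did not move one way. Myc, a growth regulator, rose by 2.35 ± 0.28 in wild-type and by 1.70 ± 0.28 in knockout cells (adjusted p = 0.000851 and 0.00701). Ccn4, a secreted matrix protein named for its induction by WNT1, changed by -1.88 ± 0.17 and -1.90 ± 0.17 (adjusted p = 0.00024 and 0.000409). Ccn5, of the same family, changed by -1.65 ± 0.16 and -1.21 ± 0.16 (adjusted p = 0.000312 and 0.00249). Ccnd1, which encodes the cell cycle protein cyclin D1, fell in both genotypes too, with differences of -0.74 ± 0.18 in wild-type and -1.45 ± 0.18 in knockout cells (adjusted p = 0.0329 and 0.00169). None of the 19 targets passed the test between genotypes in cells or in brown fat.

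**Figure D3:**
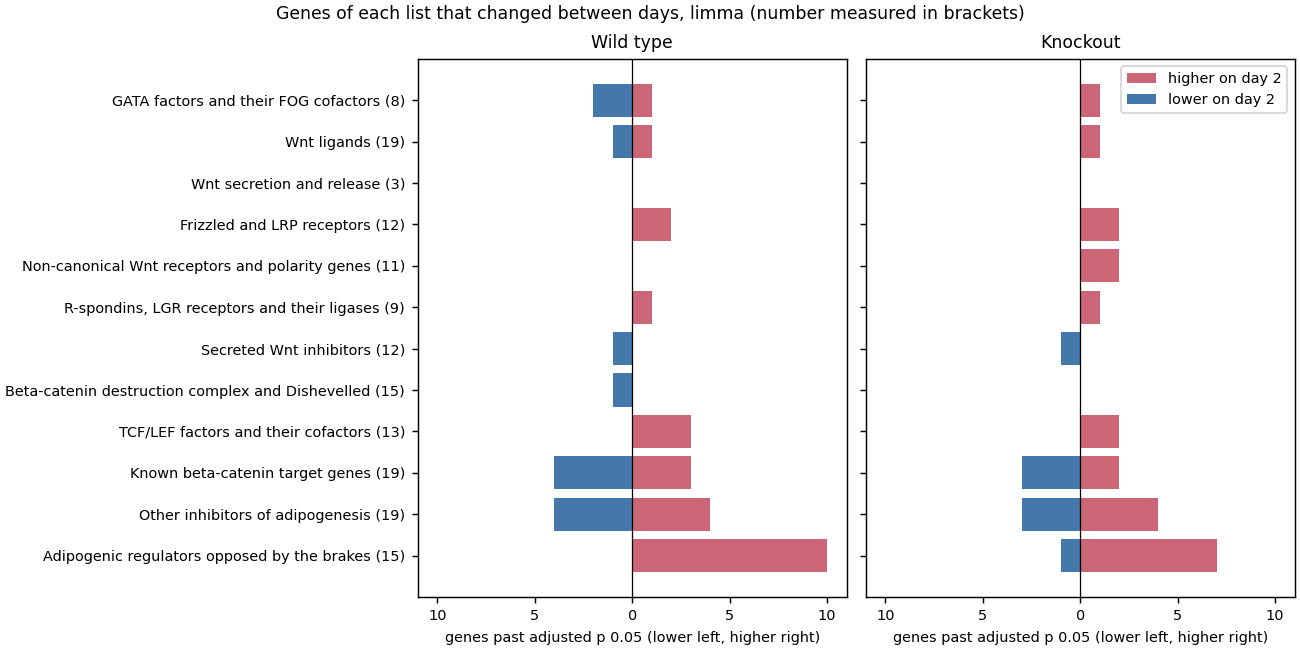
Number of genes past an adjusted p of 0.05 (limma) between day 0 and day 2 (x axis, lower on day 2 to the left of 0 and higher to the right) in each of 12 gene lists (y axis, genes measured in brackets), in wild-type and knockout cells. The adipogenic regulators have 10 genes higher and 0 lower in wild-type cells and 7 higher and 1 lower in knockout cells, while the β-catenin targets go both ways.

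Tcf7l1 and Tcf7l2 encode TCF factors that bring β-catenin to DNA and act as repressors without it. Both were higher in embryonic knockout brown fat. Tcf7l1 was 6.89, 6.78 and 6.64 in controls and 7.24, 7.51, 7.76 and 7.56 in knockouts. All 4 knockout arrays lay above all 3 controls, and the difference was 0.75 ± 0.12 (1.68-fold, adjusted p = 0.0481). Tcf7l2 was 6.21, 6.32 and 6.12 in controls and 6.61, 6.80, 6.81 and 6.75 in knockouts. Its groups did not overlap either, and the difference was 0.53 ± 0.08 (1.44-fold, adjusted p = 0.0459). The arrays of the groups did not overlap for 3 of the 9 genes, these and Rspo3, nor for 15.4% of all genes.

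Both TCF calls lay just inside the threshold. Leaving out any 1 of the 7 embryonic arrays kept the differences at 0.67 to 0.84 for Tcf7l1 and 0.48 to 0.58 for Tcf7l2, but ended both calls in every case. For each of these 7 arrays, control replicates 1 to 3 and knockout replicates 1 to 4, the number of genes past the threshold went from 257 to 0. The adjusted p of Tcf7l1 was then 0.0561 to 0.153 and that of Tcf7l2 0.0554 to 0.127. Without control replicate 1, the array whose Med1 lay among the knockouts, the differences were 0.81 (adjusted p = 0.0561) for Tcf7l1 and 0.52 (adjusted p = 0.0554) for Tcf7l2.

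Parts of the promoters of both TCF genes are shown because the genes were higher together. They are 120 bases each of RefSeq's GRCm38.p6 sequence on the gene's own strand, 5′ to 3′, from just before the start site for Tcf7l1 (chr6:72789046-72789165, minus strand) and from 220 bases before the second listed start site for Tcf7l2 (chr19:55895101-55895220, plus strand). Capitals mark the GATA letters, which in Tcf7l2 stand 187 bases before the start on the opposite strand and 139 bases before it on the gene's strand.
Tcf7l1: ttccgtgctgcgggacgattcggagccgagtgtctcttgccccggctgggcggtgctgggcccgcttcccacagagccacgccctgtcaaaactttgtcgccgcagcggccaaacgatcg
Tcf7l2: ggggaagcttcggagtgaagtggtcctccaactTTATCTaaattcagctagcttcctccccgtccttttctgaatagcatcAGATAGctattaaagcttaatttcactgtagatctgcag
The Tcf7l1 stretch held neither motif, and neither did its whole window or that of the first listed Tcf7l2 start site. Within the pair the GATA letters were thus found only at the second listed Tcf7l2 start site. A match of letters is a description and not a binding site.

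In bulk tissue fewer cells of a type and less RNA per cell cannot be told apart, and several cell type markers moved with the embryonic genotype. The mean log2 signal of 8 skeletal muscle markers was 6.14 to 7.35 in controls and 7.84 to 8.07 in knockouts, with 0 of the 8 past the test and none under its arrays' lower quartile throughout either group. The mean of 6 preadipocyte and fibroblast markers was 8.01 to 8.34 in controls and 8.64 to 8.74 in knockouts, with 1 of 6 past the test. The mean of 6 mast cell markers was 7.03 to 7.61 and 7.76 to 8.03, also with 1 of 6 past the test. The mean of 5 brown fat markers went the other way, from 8.70 to 9.54 in controls to between 7.37 and 8.0 in knockouts, and Ucp1, the uncoupling protein of brown fat, fell by 3.14 ± 0.40 (adjusted p = 0.0439). The mean of 6 mature fat cell markers was also lower, at 9.52 to 9.86 in controls and 9.05 to 9.31 in knockouts. None of these 6 passed the test. The mean of 3 erythroid markers was 5.69 to 5.86 in controls and 5.47 to 5.52 in knockouts, with 1 of 3 past the test. Among the controls, replicate 3 had the lowest Tcf7l1, Tcf7l2 and Rspo3. That array also had the lowest muscle mean (6.14) and the lowest preadipocyte and fibroblast mean (8.01). Its brown fat mean (9.54) and its Med1 (7.82) were the highest. Its mast cell mean, 7.08, was not the lowest, which was 7.03 in replicate 2. The part of these markers' cells in the higher Tcf7l1, Tcf7l2 and Rspo3 was not tested.

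**Figure D4:**
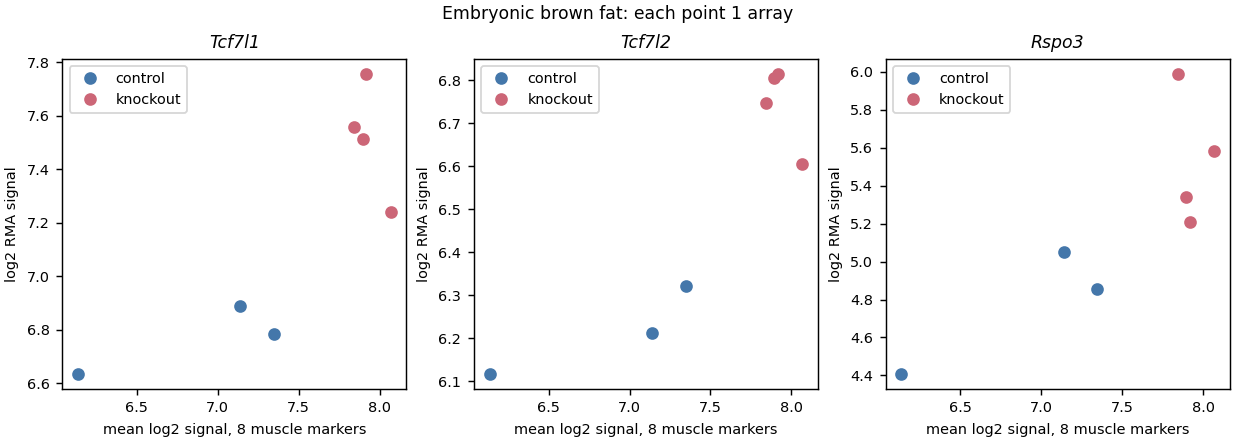
Log2 array signal of Tcf7l1, Tcf7l2 and Rspo3 (y axes) against the mean log2 signal of 8 skeletal muscle markers (x axis) in embryonic brown fat, each point 1 array of 3 controls or 4 knockouts. The knockout arrays are higher on both axes (muscle mean 7.84 to 8.07 against 6.14 to 7.35). Other marker means that moved with the genotype are not plotted. Among the knockouts the array with the most muscle signal has the lowest Tcf7l1 (7.24) and Tcf7l2 (6.61). Its Rspo3 is 5.58, within the knockout range of 5.21 to 5.99. Among the controls the array with the most muscle signal has the highest Tcf7l2 (6.32). Its Tcf7l1 (6.78) and Rspo3 (4.86) lie between those of the other controls. The part of muscle cells in these values was not tested.

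In adult brown fat neither TCF gene passed the test. Tcf7l1 was 4.53 and 3.67 in controls and 4.8 and 4.19 in knockouts (0.40 ± 0.35, adjusted p = 0.74). Tcf7l2 was 4.96 and 4.55 in controls and 5.59 and 5.06 in knockouts, so both knockouts lay above both controls (0.57 ± 0.24, adjusted p = 0.413). The adult minus the embryonic knockout effect was -0.35 ± 0.35 for Tcf7l1 and 0.04 ± 0.23 for Tcf7l2 (adjusted p = 0.693 and 0.959). No difference between the knockout effects was thus shown. Those effects differ in Cre driver and control genotype as well as in age, which cannot be told apart. The adult groups did not overlap for 5 of the 9 genes, nor for 41.9% of all genes.

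Markers of several cell types differed between the adult genotypes. The mean of 6 macrophage markers was 5.03 to 5.22 in controls and 6.42 to 6.48 in knockouts, that of 5 T cell markers 2.73 to 2.98 and 3.20 to 3.60, and that of 6 mast cell markers 4.01 to 4.38 and 4.89 to 5.05. The mean of 6 preadipocyte and fibroblast markers was 6.17 to 6.37 in controls and 6.58 to 6.81 in knockouts. The means of 5 brown fat and 6 mature fat cell markers were lower in knockouts, at 9.71 to 10.56 against 8.55 to 9.0 and at 9.91 to 10.01 against 9.42 to 9.58. No marker of these lists passed the test. Their part in the adult values of Tcf7l2, Ctnnb1, Axin2 and Rspo3 was not tested.

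**Figure D5:**
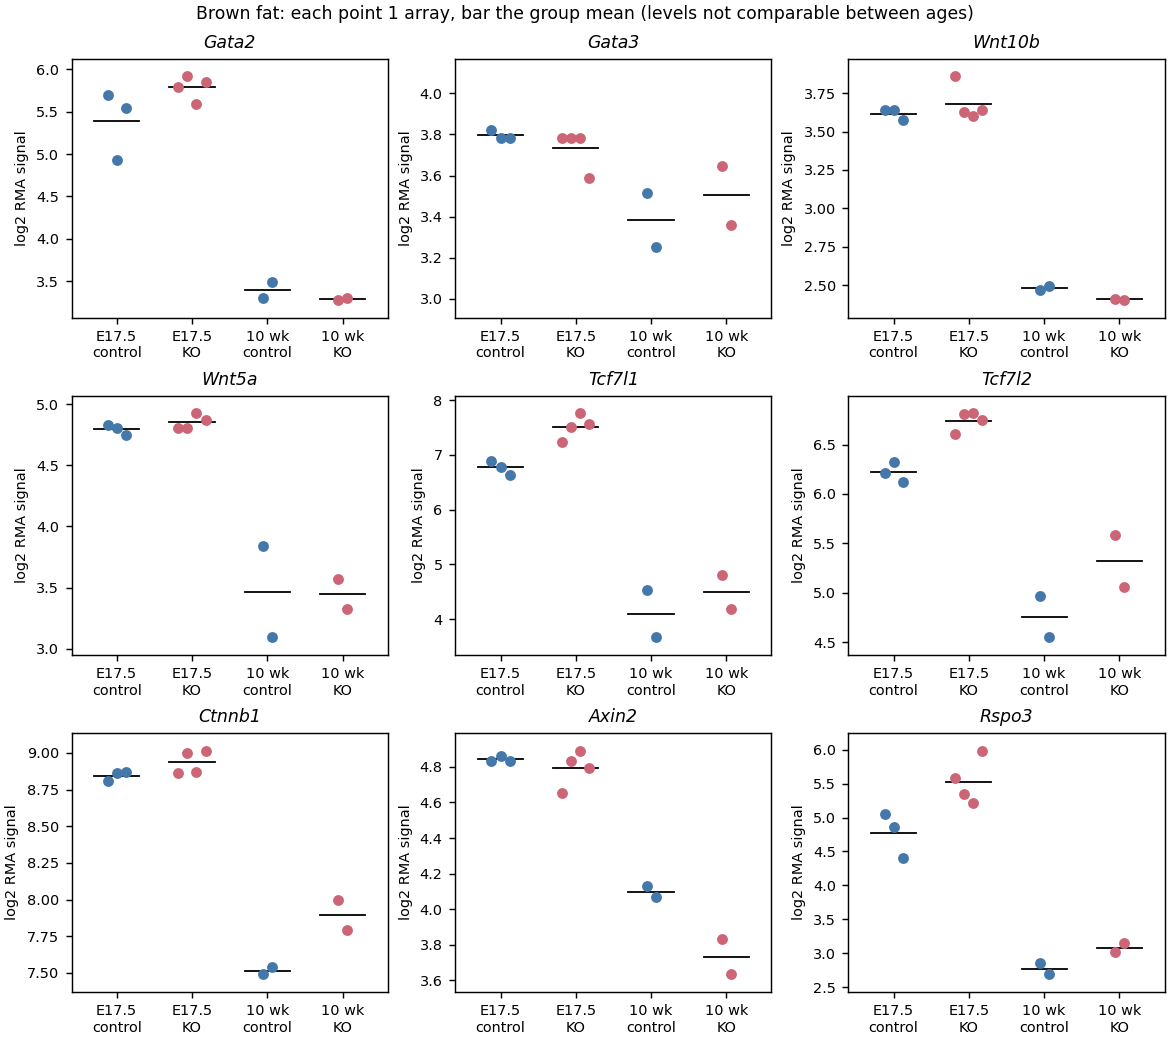
Log2 array signal (y axis, a scale of its own for each gene) of the 9 genes in brown fat by age and genotype (x axis), each point 1 array and each bar a group mean (3 and 4 arrays in the embryo, 2 and 2 in the adult). The embryonic knockout arrays lie above all controls for Tcf7l1, Tcf7l2 and Rspo3. The ages look separately normalized, so levels are read only within an age.

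In the cells neither TCF gene passed the test with genotype or with the day. Tcf7l1 was 10.43 and 9.81 on wild-type day 0, 10.73 and 10.44 on wild-type day 2, 10.30 and 9.66 on knockout day 0 and 10.52 and 10.31 on knockout day 2. Its day 2 arrays lay above the day 0 arrays in each genotype, by 0.46 ± 0.25 and 0.43 ± 0.25 (adjusted p = 0.329 and 0.456). Within each of the 4 pairs the knockout was lower, by 0.12 to 0.21, a difference of -0.15 ± 0.07 (adjusted p = 0.453).

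Tcf7l2 was 8.23 and 7.63 on wild-type day 0, 7.64 and 7.15 on wild-type day 2, 8.44 and 7.77 on knockout day 0 and 7.71 and 7.50 on knockout day 2. Its mean was lower on day 2 in each genotype, with differences of -0.54 ± 0.27 and -0.50 ± 0.27 (adjusted p = 0.283 and 0.402), opposite in sign to Tcf7l1. With the replicate number as a block the wild-type difference passed the test (-0.54, adjusted p = 0.0437). The knockout was higher in all 4 pairs, by 0.07 to 0.35 (0.19 ± 0.08, adjusted p = 0.401).

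The profiles most like that of Tcf7l1 over the 8 group means were those of Nusap1, Ilf2 and Kif18b, with root mean square differences of 0.07 against a range of 0.75. For Tcf7l2 they were Tfpi, Glt8d1 and Filip1l, with differences of 0.05 against a range of 0.71. Likeness here is over group means only.

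Of 13 measured TCF/LEF factors and cofactors, 3 rose and 0 fell between days in wild-type cells, where 3.44% and 5.64% of all genes did. In knockout cells 2 rose and 0 fell, where 2.14% and 3.57% of all genes did. Lef1, a further partner of β-catenin, rose by 1.13 ± 0.17 and 0.74 ± 0.17 (adjusted p = 0.0035 and 0.0367). Tle4, a Groucho corepressor that binds TCF factors, rose by 1.10 ± 0.15 and 1.54 ± 0.15 (adjusted p = 0.00212 and 0.000602). Its relative Tle1 rose in wild-type cells by 0.93 ± 0.17 (adjusted p = 0.00852) and gave 0.64 in knockout cells (adjusted p = 0.0634). In embryonic brown fat Tcf7l1 and Tcf7l2 were the 2 genes of the list past the test. Of all genes 0.658% were higher and 0.5% lower there. The list's median was 0.24 against -0.01 over all genes.

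Regulators that promote fat cell formation were set beside the 9 genes. Whether the 9 genes act on them was not tested. Of 15 such genes, wild-type cells had 10 higher and 0 lower on day 2 than on day 0, where 3.44% of all genes rose and 5.64% fell. Knockout cells had 7 higher and 1 lower, where 2.14% of all genes rose and 3.57% fell. The medians of the 15 were 1.25 and 0.53. Cebpd, an early inducer of Pparg, rose by 2.78 ± 0.21 in wild-type and by 2.90 ± 0.21 in knockout cells (adjusted p = 9.71e-05 and 0.000156). The Krüppel-like factor Klf5 rose by 2.69 ± 0.17 and 2.30 ± 0.17, and the zinc-finger factor Zbtb16 by 2.66 ± 0.18 and 1.98 ± 0.18. On day 2, 3 of the 15 were lower in the knockout, as were 0.234% of all genes: Pparg (-2.01 ± 0.13, adjusted p = 0.000374), its partner Cebpa (-1.36 ± 0.13, adjusted p = 0.00386) and the hormone-activated factor Stat5a (-0.93 ± 0.14, adjusted p = 0.0343). Gata2 itself on day 2 was at 6.28 and 6.36 in wild-type and 6.29 and 6.33 in knockout cells, so its groups overlapped.

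Over all 12 lists 147 of 150 genes were measured. In wild-type cells 24 rose and 12 fell between days, where 3.44% of all genes rose and 5.64% fell. In knockout cells 21 rose and 8 fell, where 2.14% of all genes rose and 3.57% fell. In embryonic brown fat 3 were higher and 0 lower, where 0.658% of all genes were higher and 0.5% lower. In the adult none passed the limma test, where 6 of all 22180 genes did. With days by the source label no gene of the table passed the test between days in either genotype, so every such call above rests on the days in the titles. Of the listed genes named here beside the 9, the calls of all 22 between wild-type days, all 22 between knockout days and all 3 on day 2 held with quantile normalization and with median centring. With each array left out in turn, 13 and 10 of the 22 and 1 of the 3, Pparg, kept the call in every fit. Those that lost it without at least 1 array were Gata6, Zfpm2, Wnt4, Fzd4, Apc, Tle1, Gli2, Ccnd1 and Foxc2 in wild-type cells, Gata6, Wnt4, Fzd4, Lrp5, Vangl1, Prickle1, Lgr4, Lef1, Myc, Id3, Foxo1 and Gli2 in knockout cells, and Cebpa and Stat5a on day 2. Gata6 over the pairs lost its call without any 1 pair and with quantile normalization (adjusted p = 0.0526), and Ucp1 in the embryo without any 1 array.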

How the data were processed

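A single deposited table holds log2 values of 41345 transcript clusters for the 19 arrays. Per the submitters' processing notes the authors used RMA in Transcriptome Analysis Console, versions not stated. RMA corrects background, equalises the arrays of a run and summarises probes on a log2 scale. Array medians were 4.69 to 4.79 (cells), 3.49 to 3.57 (embryo) and 2.87 to 2.89 (adult), so levels were compared only within an experiment. The genome build the authors used is not given in the sources used here; promoter coordinates are those of the RefSeq table (GRCm38.p6). The platform annotation gave 1 symbol for 23521 clusters, which left 22180 genes. No member lay under its arrays' lower quartile throughout a group.

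Two-sided tests came from limma 3.58.1 (R 4.3.3, default eBayes). There was 1 fit of 4 groups over the 8 cell arrays and 1 for each age of brown fat. A fit of all 11 brown fat arrays tested the adult minus the embryonic knockout effect, called "between ages" below. The genotype comparison over all cell arrays had the pair as a block: deviations of same-numbered wild-type and knockout arrays correlated at 0.35 on day 0 and 0.30 on day 2. Those of same-numbered adult control and knockout arrays correlated at 0.33, but the main adult fit had no block. The adult count with a block is given below. The number of arrays limits the precision. The fits were tested on simulated data.

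Members, gene lists and the rule for named genes were chosen with earlier results of these data known. The rule names all 9 members, up to 3 genes per list and comparison by size of change among those past the test whose arrays did not overlap, and the 3 most alike profiles. Gata6 over the cell pairs, Ucp1 and Sfrp2 or Gata6 in the embryo were named outside it, after their values were seen, as were the values in the other genotype of genes it named in 1. Alternatives were the eBayes settings, a filter on dim genes, other scalings, the mean of a gene's clusters, its other cluster (added after seeing the data), a fit of all 19 arrays, the replicate block, the source label's days and leaving out each array.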

Additional observations from a re-analysis of the deposited data

Results flagged for a closer look

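Among the 9 genes, 2 values were flagged by Dixon's test, which was run on the 1 group of 4 arrays, the embryonic knockouts. Chance flags about 1 in 20 such sets when values are normally distributed and do not repeat. Gata3 was 3.588 in embryonic knockout replicate 4, where the other 3 knockout arrays were all at 3.785. With those 3 equal, any other value on the remaining array would be flagged, so this flag cannot tell whether it stands apart. Wnt10b was 3.858 in embryonic knockout replicate 1, where the other 3 lay between 3.601 and 3.637.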

How the results depend on the processing

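Genes past the threshold, knockout against wild type over the 4 cell pairs, numbered 64, and 245 with trend and robust eBayes, 121 without dim genes, 177 in a fit of all 19 arrays. On day 0 alone they were 41, 88 with all 19 arrays and 1 by source-label days, and on day 2 59, 120 and 0. Between days the source label gave 0 in either genotype. For the genotype by day difference they were 0, 11 with all 19 arrays and 1 with the replicate block. In the embryo they were 257, 602 without dim genes, 386 with median centring, 1527 with all 19 arrays and 0 with the replicate block. In the adult they were 6, 78 with trend and robust eBayes, 63 without dim genes, 64 with quantile normalization or median centring, 2049 with all 19 arrays and 139 with the replicate block. Between ages they were 441, and 773 with all 19 arrays. Leaving out 1 array or pair gave 20 to 32 over the pairs, 3 to 40 on day 0, 12 to 47 on day 2, 1143 to 1714 and 496 to 1282 between days in wild-type and knockout cells, 0 to 2 for genotype by day, 0 in the embryo and in the adult, and 206 to 524 between ages. Pairing by number was not shown in the embryo (correlations of 0.31, -0.02 and 0.11), where the replicate block gave Tcf7l1 0.73 (adjusted p = 0.15) and Tcf7l2 0.52 (adjusted p = 0.113).

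With all 19 arrays Rspo3 passed on day 0 and day 2 and in the embryo (adjusted p = 0.0418, 0.0315 and 0.0204), as did Ctnnb1 in the adult (0.0289), and Tcf7l2 in the embryo did not (0.109). Rspo3 on day 2 passed with quantile normalization (0.0491). Over all alternatives the adjusted p of Rspo3 ran from 0.000925 to 0.0543 over the pairs, 0.0418 to 0.634 on day 0, 0.0315 to 1 on day 2 and 0.0204 to 0.351 in the embryo. Between wild-type days it ran from 0.00158 to 1 for Gata2, 0.0288 to 1 for Wnt5a and 0.0437 to 1 for Tcf7l2, and between knockout days from 0.026 to 1 for Gata2. In the embryo it ran from 0.0338 to 0.153 for Tcf7l1 and 0.0328 to 0.127 for Tcf7l2, and in the adult from 0.0289 to 0.647 for Ctnnb1. The other cluster of Gata3 and Axin2, and the check of other listed genes, were chosen after seeing the data. Sign changes were all of values past no threshold. With the other cluster Gata3 gave -0.061 over the pairs, -0.18 on day 0, -0.55 between wild-type days, 0.23 for genotype by day, -0.13 in the adult and -0.023 between ages, and Axin2 0.065 on day 2 and 0.12 between ages. The mean of clusters gave Gata3 -0.022 on day 0, -0.27 between wild-type days, 0.079 for genotype by day and -0.0035 in the adult. Quantile normalization gave Wnt5a 0.012 on day 0 and Wnt10b 0.020 on day 2, and median centring gave Gata2 0.010 and Wnt10b 0.0093 on day 2. Source-label days gave Gata3 -0.020, Wnt5a 0.17 and Ctnnb1 0.047 on day 0, and Ctnnb1 -0.023 and Axin2 0.0048 on day 2. They gave Tcf7l1 -0.46, Ctnnb1 0.078 and Rspo3 0.027 between wild-type days, and Gata3 0.29, Wnt10b -0.057, Tcf7l1 -0.43 and Axin2 0.13 between knockout days. For genotype by day they gave Gata3 0.23, Tcf7l1 0.030, Ctnnb1 -0.069 and Rspo3 -0.53.

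Leaving out 1 array or pair changed the sign of 51 of 594 values, which then ranged as follows. Over the pairs Axin2 ran from -0.042 to 0.11, Ctnnb1 from -0.032 to 0.055 and Wnt10b from -0.048 to 0.11. On day 0 Tcf7l1 ran from -0.45 to 0.19, Tcf7l2 from -0.16 to 0.51, Wnt10b from -0.037 to 0.28 and Wnt5a from -0.22 to 0.20. On day 2 Gata2 ran from -0.049 to 0.023, Gata3 from -0.12 to 0.24, Tcf7l2 from -0.033 to 0.45 and Wnt10b from -0.079 to 0.052. Between wild-type days Gata3 ran from -0.024 to 0.064. Between knockout days Axin2 ran from -0.23 to 0.085, Ctnnb1 from -0.0037 to 0.035, Gata3 from -0.24 to 0.13 and Rspo3 from -0.46 to 0.075. For genotype by day Gata3 ran from -0.26 to 0.11, Rspo3 from -0.25 to 0.28, Tcf7l1 from -0.35 to 0.29, Tcf7l2 from -0.30 to 0.37 and Wnt10b from -0.29 to 0.024. In the adult Gata3 ran from -0.024 to 0.26, Tcf7l1 from -0.039 to 0.83 and Wnt5a from -0.39 to 0.36. Between ages Tcf7l1 ran from -0.79 to 0.083, Tcf7l2 from -0.23 to 0.31 and Wnt5a from -0.45 to 0.30. The cause was not tested for any of these changes.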

Other observations

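Other genes that hold back fat cell formation moved both ways between days. Of 19 measured, 4 rose and 4 fell in wild-type cells, where 3.44% of all genes rose and 5.64% fell. In knockout cells 4 rose and 3 fell, where 2.14% of all genes rose and 3.57% fell. Id3, an inhibitor of helix-loop-helix factors, rose by 1.36 ± 0.22 in wild-type and by 1.17 ± 0.22 in knockout cells (adjusted p = 0.00506 and 0.0145). Ddit3, which encodes the stress-induced C/EBP partner CHOP, changed by -1.09 ± 0.13 and -0.89 ± 0.13 (adjusted p = 8e-04 and 0.00355). Gli2, a Hedgehog effector, rose by 1.01 ± 0.19 and 0.83 ± 0.19 (adjusted p = 0.00971 and 0.0327). The forkhead factor Foxc2 rose by 0.68 ± 0.13 and 1.11 ± 0.13 (adjusted p = 0.0102 and 0.00123). Foxo1, another forkhead factor, rose in knockout cells by 1.01 ± 0.18 (adjusted p = 0.01) and gave 0.59 in wild-type cells (adjusted p = 0.0734).

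In embryonic brown fat Fzd2, a Frizzled receptor, was the third listed gene past the test. It was 4.48, 4.33 and 4.12 in controls and 5.40, 5.48, 5.25 and 5.45 in knockouts (1.09 ± 0.10, adjusted p = 0.036), and the call ended without any 1 of the 7 arrays. In the adult it was 3.05 and 2.50 in controls and 2.81 and 2.61 in knockouts (-0.07 ± 0.22, adjusted p = 0.96). The adult arrays had medians of 2.87 to 2.89 and lower quartiles of 2.22 to 2.24, so this was a weak signal. How far a weak adult signal enters the difference between the knockout effects was not tested. The test of the adult minus the embryonic knockout effect gave -1.15 ± 0.22 (adjusted p = 0.0303). Its fit pools the spread of both ages, whose median residual SD was 0.13 in the embryo and 0.15 in the adult. Age, Cre driver and control genotype differ together between these effects and cannot be told apart. The same test gave -0.84 ± 0.17 for Dvl3, a Dishevelled (adjusted p = 0.0341). Of the 11 fits that each left out 1 array, 3 kept the call of Fzd2 (-1.43 to -0.87, adjusted p up to 0.0911), those without embryonic control replicate 1, adult control replicate 2 or adult knockout replicate 1. Likewise 3 kept that of Dvl3 (adjusted p up to 0.097), those without embryonic knockout replicate 4, adult control replicate 1 or adult knockout replicate 1. Gata6 in the embryo was 6.16, 5.63 and 5.13 in controls and 6.84, 6.71, 6.81 and 7.05 in knockouts, a difference of 1.21 ± 0.22 that missed the threshold (adjusted p = 0.0589). Sfrp2 was 6.65, 6.42 and 5.89 in controls and 7.25, 7.08, 7.02 and 7.48 in knockouts (0.89 ± 0.19, adjusted p = 0.0724).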
